A study of Sus scrofa with 11 samples.

Results

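Blastocysts grown from BCB- pig oocytes that had received extra mitochondria at fertilisation (mICSI BCB-) were compared with blastocysts from BCB+ oocytes fertilised in the ordinary way (ICSI BCB+). The comparison used 8 of the 11 arrays of the series, 4 per group, chosen by title, source name and staining tag. A free-text description calls the oocytes of the mICSI group BCB+, whereas the other fields of the same samples give BCB-, which was followed here. All oocytes were stained as cumulus complexes for 60 min, matured for 44 h with gonadotrophins, fertilised by injection and cultured for 7 days, and each array holds the amplified RNA of 1 whole day-7 blastocyst. The ICSI BCB+ blastocysts came from oocytes that kept the stain, injected with sperm alone. The mICSI BCB- blastocysts came from oocytes that lost it, injected with sperm and a mitochondrial isolate taken from other oocytes. Per the study the isolate was autologous, made for each ovary pair from mature oocytes that kept the stain (BCB+). The 3 ICSI BCB- blastocysts, from oocytes that lost the stain and were injected with sperm alone, serve below as the unsupplemented reference. All groups hold only embryos that reached the blastocyst stage, and the labels do not tie embryos to sows or collection days, so p-values measure the spread between these blastocysts.

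Brilliant cresyl blue (BCB) is a dye that glucose-6-phosphate dehydrogenase, the entry enzyme of the pentose phosphate pathway, renders colourless. The enzyme is active in growing oocytes and declines once growth is complete, so that fully grown oocytes keep the blue stain (BCB+) and growing ones lose it (BCB-). BCB- oocytes are known to carry less mitochondrial DNA and to reach the blastocyst stage less often. Mitochondrial DNA encodes subunits of the respiratory chain, and the copies laid down in the oocyte are shared out among the cells of the early embryo. Intracytoplasmic sperm injection (ICSI) places a single sperm directly into the oocyte, and mICSI adds the mitochondrial isolate in the same injection. The blastocyst consists of an outer trophectoderm, which contributes to the placenta, and an inner cell mass, which forms the embryo proper.

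The array carries 43795 non-control probes, of which 43753 had no outlier flag and 33149 passed the filter on dim signals. In the files used here a probe has an ID but no gene name. The labelled tissue could therefore not be checked against inner cell mass, trophectoderm or hypoblast markers, and neither mitochondrial nor metabolic genes could be followed by name. The 75th percentile of the processed signal, before normalisation, lay between 374 and 556 on the ICSI BCB+ arrays and between 244 and 574 on the mICSI BCB- arrays. Relative to the spike-in RNA added before extraction it was 1.45% ± 0.346 (SD, n = 4) in ICSI BCB+ and 1.82% in mICSI BCB-, where the 4 blastocysts gave 2.74%, 1.16%, 2.58% and 0.791% (two-sided exact permutation test, p = 0.457). The range of the mICSI BCB- group thus enclosed that of the ICSI BCB+ group. Fewer cells and less RNA per cell cannot be told apart in such values.

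The share of probes detected varied more among mICSI BCB- than among ICSI BCB+ blastocysts, and the difference between the group means did not pass the test with the flag used here. A probe was taken as detected where the scanner software marked its signal as well above background. ICSI BCB+ replicates 1 to 4 had 69.4%, 70.5%, 69.2% and 68.0% of probes detected. mICSI BCB- replicates 1 to 4 had 67.6%, 62.9%, 69.8% and 59.4%. Replicate 3 of the supplemented group thus lay within the ICSI BCB+ range and the other 3 below it. The group means were 69.3% ± 1.05 in ICSI BCB+ and 64.9% ± 4.65 in mICSI BCB- (SD, n = 4 each), a difference of -4.33 percentage points (two-sided exact permutation test, p = 0.171, where the smallest p the design allows is 0.0286). The 3 ICSI BCB- blastocysts had 72.2%, 69.2% and 71.4% detected. Without mICSI BCB- replicate 3 the difference was -5.96 points, with the 3 remaining arrays all below the ICSI BCB+ range (two-sided exact permutation test, p = 0.0286, the smallest possible). With the scanner's less strict flag for positive and significant signals the difference was -4.49 points with all 8 arrays (p = 0.0286 by the same exact test).

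**Figure D1:**
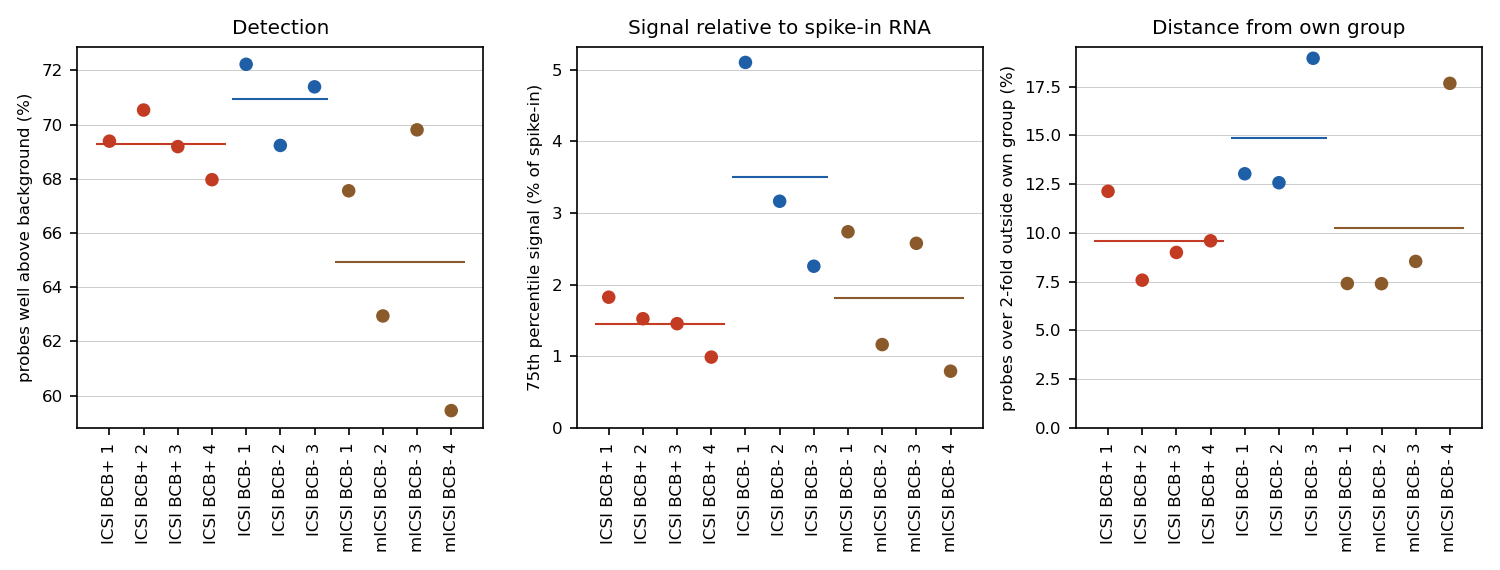
Values of the 11 single-blastocyst arrays, with a point per array and a line at each group's mean. From left to right the panels show the percentage of probes well above background, the 75th percentile signal as a percentage of the spike-in signal, and the percentage of probes over 2-fold outside the range of the other arrays of the same group. mICSI BCB- replicate 4 had the lowest detection (59.4%), the lowest signal relative to spike-in (0.791%) and the highest percentage outside its own group among the 8 arrays compared (17.7%).

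Most probes were detected in the same way in both groups. All 8 arrays detected 22491 probes (51.4%) and none of the 8 detected 7414 (16.9%). Probes that switched completely were few. Only 14 were detected on all 4 mICSI BCB- arrays and on no ICSI BCB+ array, against 109 detected on all 4 ICSI BCB+ arrays and on no mICSI BCB- array.

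The gained and the lost probes differed in the size of their signal change. The 14 gained probes had a median log2 signal after normalisation of 7.33 in mICSI BCB- and of 3.25 in ICSI BCB+, and each of the 14 differed by over 2-fold. The 109 lost probes had a median of 4.89 in ICSI BCB+ and of 4.32 in mICSI BCB-, and 24 of them differed by over 2-fold. Most of the lost signals thus lay close to the limit of detection in the group that had them. This limit was unequal. The lowest detected log2 signal was 4.32, 4.23, 4.37 and 4.48 on ICSI BCB+ replicates 1 to 4. On mICSI BCB- replicates 1 to 4 it was 4.52, 4.94, 4.28 and 5.28. A probe could thus be lost with little change in signal, whereas a gained probe had to pass the mICSI BCB- limits. The counts and sizes of both sets are therefore fixed in part by the flag. With a common limit on the normalised signal, set at a log2 value of 4.42 so that each array had 69.5% of probes above it, 32 probes were gained and 22 lost. Such a limit makes the share detected equal on all arrays by construction. Of these, 13 gained and 16 lost probes were also in the sets defined by the scanner flag.

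The ICSI BCB- arrays, which had no part in choosing the gained and lost probes, detected some of both. All 14 gained probes were detected on at least 1 of the 3 ICSI BCB- arrays, namely 4 on 1 array, 5 on 2 arrays and 5 on all 3. Of the 109 lost probes, 16 were detected on no ICSI BCB- array, 29 on 1, 38 on 2 and 26 on all 3. Among the 1438 probes detected on any 4 of the 8 arrays compared, 9.81% were on no ICSI BCB- array and 30.8% on all 3. The shares on all 3 were 35.7% of the 14 gained and 23.9% of the lost probes, and neither was tested against the 30.8%.

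**Figure D2:**
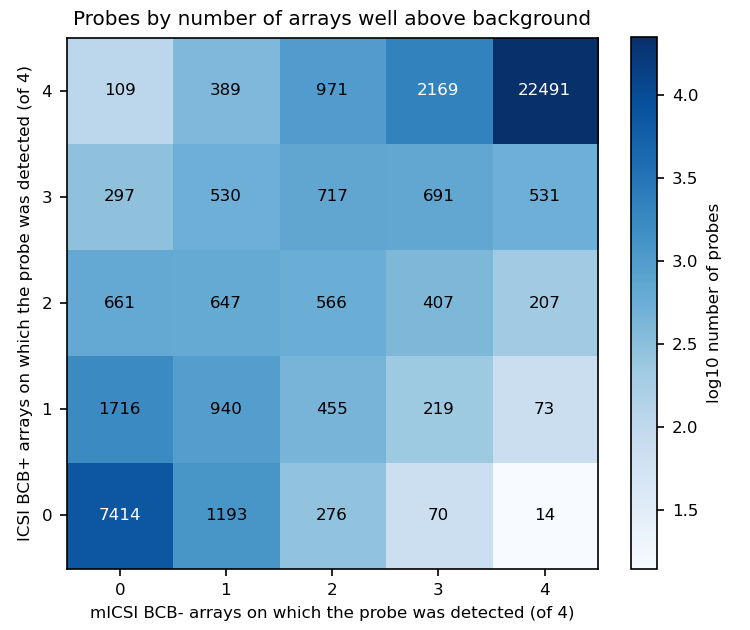
Number of probes by how many of the 4 mICSI BCB- arrays (horizontal axis) and how many of the 4 ICSI BCB+ arrays (vertical axis) detected them, with the colour on a log10 scale. The upper left cell holds the 109 lost probes, the lower right cell the 14 gained probes and the upper right cell the 22491 probes on all 8 arrays.

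Incomplete detection within a group was more frequent after supplementation. In mICSI BCB-, 10240 probes (23.4%) were detected on 1 to 3 of the 4 arrays, compared with 8657 (19.8%) in ICSI BCB+. Much of this belonged to a single embryo. Of the 3556 probes that exactly 3 of the 4 mICSI BCB- arrays detected, 2178 (61.2%) were missing on replicate 4, while 332, 838 and 208 were missing on replicates 1, 2 and 3. The same count in ICSI BCB+ ranged from 457 to 821 per array. Conversely, mICSI BCB- replicate 3 alone detected 1594 probes that the other arrays of its group did not, the highest number of the 8 arrays, with the others between 538 and 1018.

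Few probes differed between the groups at a false discovery rate of 0.05, and those that did were higher in mICSI BCB-. The limma fit over all 11 arrays called 6 of the 33149 probes (0.0181%), with log2 fold changes from 2.52 to 5.57 and adjusted p from 0.042 to 0.045. At the study's second threshold, an unadjusted p under 0.01 with a fold change over 2, there were 538 probes (1.62%), of which 329 were higher (0.992%) and 209 lower (0.63%). Apart from the 6, these probes did not pass correction for the number of probes tested. Over all probes the median log2 fold change was -0.01.

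EMPV1_07318 was not detected in ICSI BCB+. Its log2 signal was 2.09, 2.09, 2.10 and 2.11 in the ICSI BCB+ blastocysts, none of them well above background. In mICSI BCB- it was 5.79, 8.40, 7.14 and 9.36, well above background in each. ICSI BCB- blastocysts had 4.58, 5.33 and 4.96, between both other groups and without overlap with either. The difference between mICSI BCB- and ICSI BCB+ was at least 10.01-fold, measured against the lowest detected signal of the ICSI BCB+ arrays (limma log2 fold change 5.57, SE 0.64, adjusted p = 0.042).

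EMPV1_17842 was likewise not detected in ICSI BCB+. Its log2 signals in ICSI BCB+ were 3.73, 2.83, 2.20 and 2.24, none well above background. The mICSI BCB- blastocysts had 8.70, 8.59, 6.33 and 8.32, with replicate 3 standing below the others. The ICSI BCB- blastocysts had 6.97, 5.24 and 6.51, so that every BCB- embryo, supplemented or not, exceeded every BCB+ embryo. mICSI BCB- was at least 12.4-fold higher than ICSI BCB+ (limma log2 fold change 5.23, SE 0.61, adjusted p = 0.042).

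No lower probe passed the false discovery rate. In limma 1058 of the 33149 probes were lower at an unadjusted p under 0.05. Unchanged probes reach such a p at a rate of 0.05, over both directions. The falls described next were taken by fitted log2 fold change from probes at the unadjusted threshold. These probes were detected on all 4 ICSI BCB+ arrays and their groups did not overlap. Both fitted values rest in part on mICSI BCB- signals that were not well above background, and with a floor of 10 they were -5.31 and -5.35. EMPV1_10137 had log2 signals of 11.16, 6.81, 7.90 and 11.56 in ICSI BCB+ and of 3.69, 2.10, 5.86 and 2.18 in mICSI BCB-, where 1 of the 4 arrays detected it. ICSI BCB- blastocysts had 5.84, 6.08 and 7.53. The fitted log2 fold change was -5.90 (limma, SE 1.19, adjusted p = 0.30). EMPV1_20125 had 11.18, 10.08, 8.20 and 11.18 in ICSI BCB+ and 6.89, 3.65, 5.40 and 2.95 in mICSI BCB-, with 2 of the 4 detected. Its ICSI BCB- signals of 8.03, 6.39 and 2.24 spanned the whole range of the supplemented group, and its fitted log2 fold change was -5.44 (limma, SE 1.30, adjusted p = 0.36). The standard errors of both probes exceeded those of the 6 that passed, which ran from 0.27 to 0.64. However, 4 of the 6 were not detected on any ICSI BCB+ array, where signals hardly vary (SD 0.0088 for EMPV1_07318). Their smaller errors thus need not mean a more precise measurement. With a floor of 10 the adjusted p was 0.11 for EMPV1_07318 and 0.063 for EMPV1_17842 (limma).

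**Figure D3:**
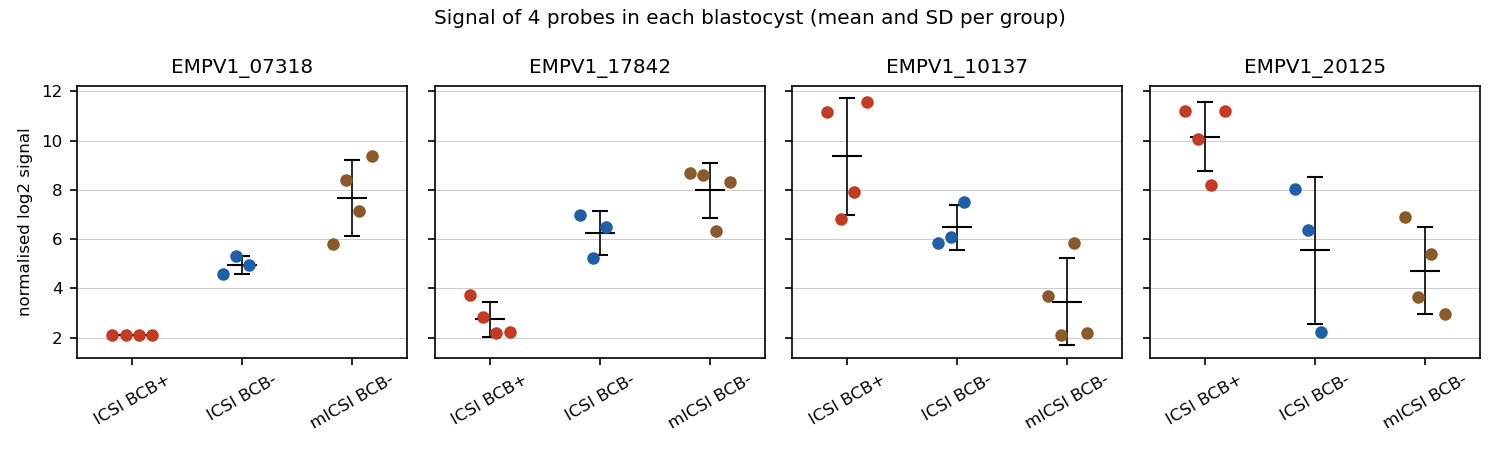
Normalised log2 signal of 4 probes in each blastocyst, with a point per embryo and the mean and SD of each group. In the left pair of panels every BCB- embryo lies above every ICSI BCB+ embryo, and in the right pair every mICSI BCB- embryo lies below every ICSI BCB+ embryo.

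The 6 probes that passed correction were also high in BCB- blastocysts without supplementation. All 6 were well above background on all 7 BCB- arrays, 4 of them were not detected on any ICSI BCB+ array, 1 was detected on 2 of these and 1 on every array. For each of the 6, every ICSI BCB- blastocyst was above every ICSI BCB+ blastocyst, an order that 3.88% of all probes showed. The ICSI BCB+ arrays are the same in both comparisons, and the 6 were chosen in part by their low signals on them. The 3.88% of all probes is therefore no fair measure for the 6, and their order lends the calls no support. Log2 fold changes of ICSI BCB- against ICSI BCB+ ran from 2.14 to 4.54 for the 6, and 1 of them passed the false discovery rate there. Between mICSI BCB- and ICSI BCB- the differences ran from 0.11 to 2.71 with mICSI BCB- the higher for all 6, and limma called 0 of them (3 had an unadjusted p under 0.05).

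The count of 6 changed when single arrays were left out and with the way in which slide entered the fit. Without ICSI BCB+ replicate 1, 2, 3 or 4 it was 1, 1, 2 and 3. Without ICSI BCB- replicate 2 it was 0 (2273 of 32785 probes at an unadjusted p under 0.05 in limma). Without mICSI BCB- replicates 1 and 2 it was 1 and 0 (2157 of 32977 for the latter). Slide 1 held replicates 1 and 2 of both groups, slide 2 ICSI BCB+ replicates 3 and 4, and slide 3 mICSI BCB- replicates 3 and 4. With slide as a fixed block limma called 0 probes at the false discovery rate (2022 of 33149 at an unadjusted p under 0.05). Within slide 1 it also called 0 (2414 of 33149). With slide as a random block the count stayed at 6. The correlation within slides estimated for that fit was -0.0235, so it hardly differed from the main fit and does not test slide. The log2 fold changes of the 6 ran from 2.75 to 5.36 on slide 1 alone and from 2.29 to 6.14 between replicates 3 and 4 of both groups. Their sign in any subset is fixed, since the groups overlapped for none of the 6.

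The 329 higher and 209 lower probes resembled each other in size and brightness. Their median absolute log2 fold changes were 1.92 and 2.03, and 43 higher and 47 lower probes changed by over 10-fold. Of those over 10-fold, 14 higher and 9 lower probes were detected on no array of the group with the lower signal. Over all calls the group with the lower signal detected the probe on no array for 43 higher and 31 lower probes, and among the 209 higher and 112 lower probes detected on all 8 arrays the median absolute log2 fold change was 1.55 and 1.57, with maxima of 3.31 and 3.72. Calls were spread over the range of brightness, with 1.58%, 1.40%, 1.92% and 1.59% of probes called in 4 equal bins from the dimmest to the brightest. The groups did not overlap for 256 of the 329 and 159 of the 209, while over all probes 2.42% were higher and 2.02% lower without overlap. The calls were made on these same arrays, which favours groups without overlap, so the contrast lends the calls no support. With slide as a fixed block the balance turned to 268 higher and 291 lower, and with spike-in scaling it was 206 and 68, where the median of all probes moved to 0.17.

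Of the probes that set unsupplemented BCB- blastocysts apart from ICSI BCB+ ones, 20.8% were also called after supplementation, a share that moved from 13.8% to 35.3% when single arrays were left out. ICSI BCB- and ICSI BCB+ blastocysts differed at the unadjusted threshold for 741 probes (2.24%), 558 higher (1.68%) and 183 lower (0.552%) in ICSI BCB-. Of these, 154 were called between mICSI BCB- and ICSI BCB+ in the same direction, 117 higher and 37 lower, and 1 in the opposite direction. Over all probes 0.992% were called higher and 0.63% lower in mICSI BCB-, but the ICSI BCB+ arrays common to both comparisons raise the number called in the same direction, so these shares give no measure of what would remain without a common difference. A further 186 differed by over 2-fold in the same direction without passing the p threshold, and 398 lay within 2-fold of the ICSI BCB+ mean. The higher probes had a median log2 fold change of 2.05 in ICSI BCB- and of 0.96 in mICSI BCB-, and the lower ones of -1.55 and -0.76. Since the 741 were chosen on the ICSI BCB- arrays, a smaller value in mICSI BCB- is fixed in part by the choice. The ICSI BCB+ arrays, used in both comparisons, instead draw the mICSI BCB- value towards the same direction. The medians therefore do not measure how much of a difference remained. Without ICSI BCB+ replicate 1, 272 of 952 probes remained (28.6%), without ICSI BCB+ replicate 3, 228 of 645 (35.3%), and without ICSI BCB- replicate 3, 142 of 1032 (13.8%).

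The mean of mICSI BCB- was not generally nearer to either reference for the 741 probes. These were chosen because the references lay apart, so how the mean divides between them is fixed in part by the choice. The counts therefore do not measure an effect of supplementation. The mean lay within 2-fold of ICSI BCB+ only for 223, within 2-fold of ICSI BCB- only for 218, within 2-fold of both for 175 and of neither for 125. The higher and the lower probes differed in this respect, with 187 and 163 of the 558 higher probes near one reference only, ICSI BCB+ and ICSI BCB- respectively, and 36 and 55 of the 183 lower probes. The 154 probes had been chosen for passing the same threshold in both comparisons against the same ICSI BCB+ arrays, which favours changes of like size. Their median log2 fold changes were 2.18 in ICSI BCB- and 2.02 in mICSI BCB- for the 117 higher and -1.97 and -1.86 for the 37 lower, and for 142 of the 154 both BCB- groups lay within 2-fold of each other.

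**Figure D4:**
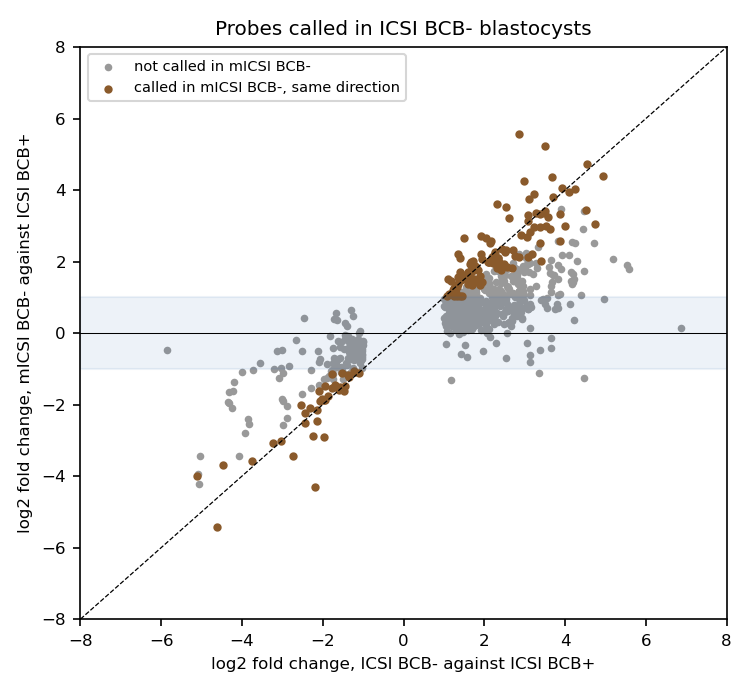
Log2 fold change against ICSI BCB+ in ICSI BCB- (horizontal axis) and in mICSI BCB- (vertical axis) for the 741 probes called in ICSI BCB-. Brown points are the 154 also called in mICSI BCB- in the same direction, the shaded band marks changes within 2-fold, the dashed line marks equal changes, and both axes share the ICSI BCB+ arrays.

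Not all differences of the supplemented embryos were seen in unsupplemented ones. Of the 329 higher probes, 122 had an ICSI BCB- mean within 2-fold of ICSI BCB+, and of the 209 lower probes 91 did. These probes were chosen on the mICSI BCB- values, and limma called 0 of the 538 between both BCB- groups at the false discovery rate (143 at an unadjusted p under 0.05).

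Arrays that the comparisons did not share gave a much weaker correspondence. Slide 2 held ICSI BCB- replicates 1 and 2 beside ICSI BCB+ replicates 3 and 4. Of the 33149 probes, 3955 were higher and 3162 lower there in ICSI BCB- by over 2-fold without overlap. With 2 arrays per group many probes lie apart without overlap by chance, so these counts are not a result in themselves. Read on slide 1, which compares mICSI BCB- replicates 1 and 2 with ICSI BCB+ replicates 1 and 2, the higher probes had a median log2 fold change of 0.14 and the lower ones of -0.01. Of the higher probes 57.2% were also higher on slide 1, where 52.4% of all probes were higher. Changes over 2-fold in the same direction were found for 22.96% of the higher probes, against 12.4% of all probes, and for 12.3% of the lower probes, against 12.2% of all probes. In the opposite direction they were also more frequent, with 16.2% of the higher probes against 12.2% of all, and 14.3% of the lower probes against 12.4%. Across all 33149 probes the correlation between the fold changes on the 2 slides was 0.016, where each slide has its own 4 arrays.

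Other blastocysts of the same groups also gave a weak correspondence. Of the 33149 probes, slide 1 had 2805 higher and 2555 lower in mICSI BCB- by over 2-fold without overlap. These counts also rest on 2 arrays per group and are not a result in themselves. Between replicates 3 and 4 of both groups the median log2 fold change of these was 0.16 and -0.07. Of the higher probes 55.6% were also higher there, against 48.4% of all probes, and of the lower ones 52.9% were also lower, against 51.6%. Changes over 2-fold in the same direction were found for 26.8% of the higher probes, against 13.99% of all probes, and for 23.6% of the lower probes, against 14.1%. The opposite direction was also more frequent, with 17.8% of the higher probes against 14.1% of all, and 19.6% of the lower probes against 13.99%. The correlation between the fold changes of these separate sets of blastocysts was 0.071 across the 33149 probes. Replicates 3 and 4 of the groups lay on different slides, so slide and group cannot be told apart for that set of arrays.

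**Figure D5:**
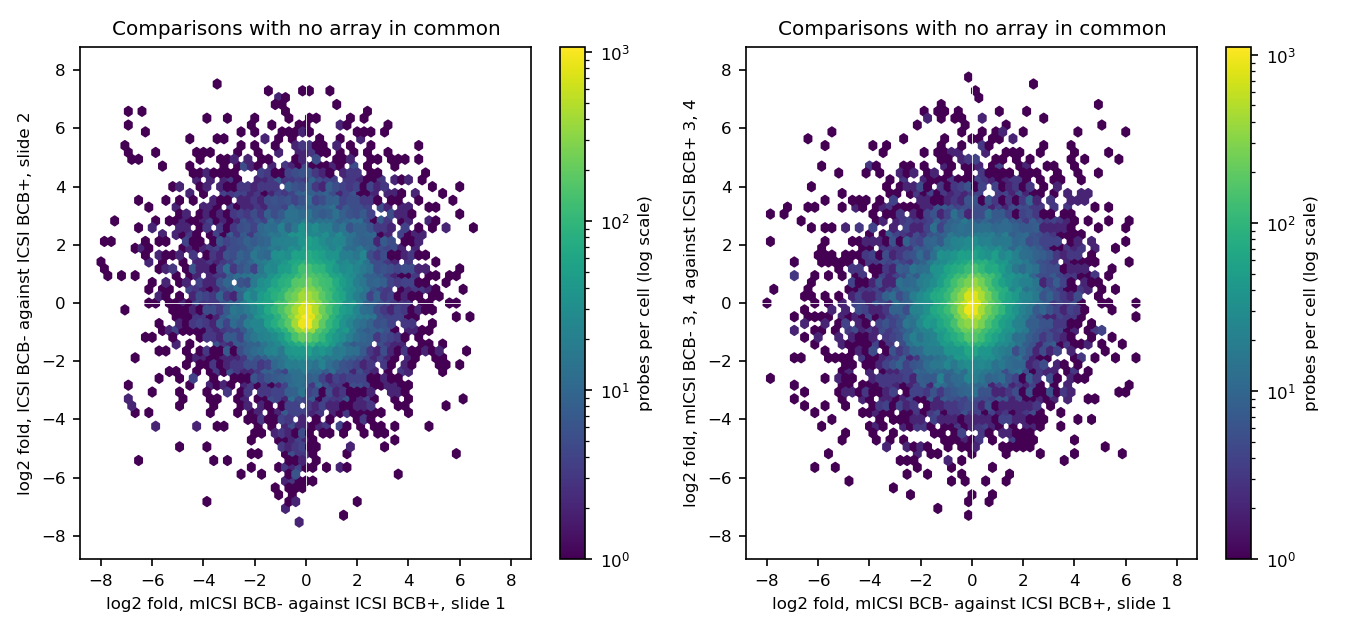
Log2 fold change of mICSI BCB- against ICSI BCB+ on slide 1 (both horizontal axes) plotted against the fold change of ICSI BCB- against ICSI BCB+ on slide 2 (left) and of mICSI BCB- replicates 3 and 4 against ICSI BCB+ replicates 3 and 4 (right), with the number of probes in colour on a log scale. Both clouds are nearly round, with correlations across probes of 0.016 and 0.071.

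The spread between embryos was slightly wider in mICSI BCB- than in ICSI BCB+. The median SD of the log2 signal over probes was 0.65 (quartiles 0.38 and 1.11) in mICSI BCB- and 0.58 (0.32 and 1.12) in ICSI BCB+, and 0.53 in the 3 ICSI BCB- blastocysts. The SD was larger in mICSI BCB- for 54.4% of probes. It was over 2 times larger there for 7056 probes and over 2 times larger in ICSI BCB+ for 5001. Among the 22491 probes detected on all 8 arrays the median SD was 0.54 in mICSI BCB- and 0.49 in ICSI BCB+. In the dimmest of 4 equal bins the median SD was 0.84 in mICSI BCB- and 0.67 in ICSI BCB+, and in the brightest 0.52 in both.

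The sign of the difference in spread depended on mICSI BCB- replicate 4. It was over 2-fold outside the range of the other arrays of its group for 5856 probes (17.7%), against 2454, 2451 and 2830 for replicates 1, 2 and 3, and 2511 to 4021 for the ICSI BCB+ arrays. Its correlations with the other mICSI BCB- arrays were 0.852 to 0.873, whereas those among the other 3 were 0.901 to 0.916 and those within ICSI BCB+ 0.862 to 0.887. Between pairs of embryos, 36.4% to 43.4% of probes differed by over 2-fold where replicate 4 was in the pair and 28.3% to 31.5% where it was not. In ICSI BCB+ 28.6% to 36.9% did. Without replicate 4 the difference in median SD turned from 0.07 to -0.09, with 3 arrays against 4. Leaving out the most distant array of a group lowers its spread by construction. Without ICSI BCB+ replicate 1, the most distant of its group, the difference was 0.17. mICSI BCB- replicate 4 also had the lowest detection (59.4%) and the lowest signal relative to spike-in (0.791%) of the 8. Their part in its distance from the group was not tested. At the unadjusted threshold 354 probes were higher and 176 lower without it.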

How the data were processed

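Single blastocysts were profiled on 1-colour Agilent arrays, with 1 array per embryo. The authors deposited Agilent Feature Extraction output (version 11.0.1.1 per the file headers), in which the processed signal is a linear intensity after background subtraction with no normalisation between arrays. The deposited flags for detection, saturation and outliers are a score of 0 or 1 per spot, and no non-control spot was saturated. Per the study's methods the RNA of each blastocyst was amplified after spike-in RNA had been added, so the spread between arrays includes that of amplification, and the number of arrays limits the precision.

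Control spots and 42 probes with an outlier flag were left out. The 11 arrays were quantile normalised together, signals under 1 were raised to 1, and log2 was taken. Quantile normalisation removes differences in total RNA. The filter on dim signals asked for 3 or more arrays on which a probe reached the 20th percentile and carried the flag for signals well above background. The fit was made with limma 3.58.1 (R 4.3.3), giving each group its mean on the 11 arrays, with Benjamini-Hochberg adjustment over 33149 probes. Array values were compared by exact permutation tests. Where a group detected a probe on none of its arrays its signal was a bound, taken as the higher of the lowest detected signal of each array and the signal of the probe. Other steps used Python 3.11.15 with pandas 2.3.3, and matplotlib 3.10.9 for plots. The fit was tested on simulated data with normally distributed values, without a signal floor, undetected groups or slide differences. That test therefore does not cover calls on probes undetected in a group.

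The files and tables used here do not pair probes with genes or sequences, so gene lists and cell type markers were not analysed and no sequence is printed. The rule for naming probes then allowed 2 that rose and 2 that fell, those with the largest changes past the false discovery rate, or, where none passed, at an unadjusted p under 0.01 with a fold change over 2, without overlap and with detection on all 4 arrays of the higher group. The comparison, lists and tests were chosen with earlier results of these data known. Alternatives covered normalisation, background (normexp with an offset of 50 on median spot intensities), filter, floor, outlier flags, arrays fitted, the methods' t-test, the prior, slide, the replicate number, the measure of detection and leaving out each array.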

Additional observations from a re-analysis of the deposited data

Results flagged for a closer look

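An array stood apart from the other 3 of its group, by the gap to its nearest neighbour relative to the group's range (Dixon's test), in 3 of 20 groups of values examined, where chance gives about 1 in 20. mICSI BCB- replicate 4 was over 2-fold outside its own group for 17.7% of probes, the highest of the 4. The same blastocyst had the lowest mean correlation with its own group, 0.861. The log2 signal of EMPV1_17842 was lowest in mICSI BCB- replicate 3, at 6.33.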

How the results depend on the processing

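The count of 6 probes at the false discovery rate was 12 in both fits restricted to the 8 arrays. It was 1 with spike-in scaling, with detection required on all 11 arrays or with a floor of 10. It was 0 with normexp (2432 of 33149 at an unadjusted p under 0.05 in limma) and with no filter on dim probes (3298 of 43753). Slide as a fixed block (2022 of 33149) and slide 1 alone (2414 of 33149) also gave 0. Leaving out single arrays gave 0 to 9. Spike-in scaling gave 206 higher and 68 lower probes at the unadjusted threshold (75.2% higher, against 61.2%), the methods' t-test 209 and 112 (8 probes at the false discovery rate), and detection on all 11 arrays 136 lower. The other settings left both counts within 1.5 times, and leaving out single arrays gave 224 to 489 higher and 171 to 271 lower. With slide as a random block there were 6 probes at the false discovery rate, in a fit close to the main one (estimated correlation within slides -0.0235).

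The replicate numbers gave no sign of pairing, as deviations from the group means of same-numbered arrays correlated at 0.05, -0.05, -0.02 and 0.08. Such values cannot exclude a shared sow or collection day, which the labels do not give. With the replicate number as a block, limma called 0 probes at the false discovery rate (2195 of 33149 at an unadjusted p under 0.05). At the unadjusted threshold it called 257 higher and 182 lower.

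With the flag for positive and significant signals the difference in detection was -4.49 points, the p being the smallest the exact permutation test allows, 0.0286. Leaving out single arrays gave -5.96 to -2.50 points. Detection on at least 3 of 4 arrays against none gave 84 gained and 406 lost probes, the common limit 32 and 22, and leaving out single arrays 20 to 49 gained and 144 to 271 lost. The difference in median SD ranged from -0.089 to 0.17 when single arrays were left out, turning negative without mICSI BCB- replicate 4 and being highest without ICSI BCB+ replicate 1. The 154 remaining probes became 108 to 272. EMPV1_07318 lost its call in 18 and EMPV1_17842 in 20 of 26 alternatives. The causes of these changes were not tested.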
